A study of Mus musculus with 12 samples.

Results

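The genes described here are 30 mouse genes of cholesterol supply, listed by symbol for their roles, with earlier results of these data known. They comprise 4 regulators of synthesis, 7 enzymes of the branch from acetyl-CoA to farnesyl diphosphate, 11 enzymes from squalene to cholesterol, 5 genes of uptake and intracellular transport, and 3 genes of storage and export. They are 30 of the 48709 gene IDs in the count tables, and 29 of them were among the 14408 genes with enough counts to be tested. RNA had been sequenced from embryonic fibroblasts (MEFs) of the C57BL/6 mouse strain in 4 groups of 3 samples, with WT or TAZKo cells kept either in normoxia or in hypoxia. The hypoxia groups had spent 24 hours in a hypoxia workstation, and all cells were grown in DMEM with fetal bovine serum. TAZKo stands for cells without tafazzin, the mitochondrial enzyme, encoded by Taz, that remodels the phospholipid cardiolipin, and the WT cells are described as isogenic to them. The oxygen level, the kind of Taz mutation, the age of the embryos, any immortalization and the number of clones behind each genotype are not given in the sources used here. Nothing says that the 3 samples of a group were separate cultures, so the p-values measure only the spread between these samples, which may be technical.

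Cholesterol is built from acetyl-CoA through mevalonate and the isoprenoid farnesyl diphosphate to squalene, which is oxidized, closed into lanosterol and then trimmed and reduced to cholesterol. Several of these late steps consume molecular oxygen. The transcription factor SREBP-2, the product of Srebf2, switches on most of the pathway. When membrane sterols are low, the escort protein SCAP carries SREBP-2 from the endoplasmic reticulum to the Golgi, where proteases release its active part, and INSIG1 and INSIG2 hold SCAP back when sterols are plentiful. When oxysterols are plentiful, the nuclear receptors called LXRs switch on the exporters ABCA1 and ABCG1 and the ubiquitin ligase MYLIP, which removes lipoprotein receptors from the cell surface. Fibroblasts in culture both make cholesterol and take it up from serum lipoproteins.

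Total counts ran from 21039451 to 31204510 per sample, and 3 counts, taken as the detection floor, were worth 0.0927 to 0.150 CPM (counts relative to library size, with TMM factors, edgeR's trimmed-mean scaling), for counting error only. Taz stood at 38.00, 33.3 and 32.7 CPM in the 3 WT-labelled normoxia samples, 45.8, 39.8 and 40.95 in TAZKo-labelled normoxia, 25.5, 26.4 and 23.5 in WT-labelled hypoxia and 33.6, 32.8 and 35.1 in TAZKo-labelled hypoxia. Its level was higher, not lower, in the TAZKo-labelled libraries, by log2 0.29 ± 0.08 (SE) in normoxia and 0.43 ± 0.08 in hypoxia (edgeR adjusted p = 0.0139 and 0.00112). The counts therefore go against a loss of the transcript in the libraries labelled TAZKo, although a mutation that leaves the transcript in place would not show in them, and the groups are called by their labels throughout. Of the fibroblast markers, Col1a1, Fn1 and Vim were high and the list of 9 markers summed to 10025 to 13100 CPM, but Thy1 was at 0.0867 to 0.291 CPM and Col1a2 at 1.52 to 5.93 CPM. Some markers of other cell types moved with the groups. The 6 macrophage markers, mostly Cd68 and Csf1r, summed to 4.85 to 5.93 CPM in WT-labelled normoxia, 6.41 to 7.24 in TAZKo-labelled normoxia, 11.96 to 14.0 in WT-labelled hypoxia and 8.72 to 10.6 in TAZKo-labelled hypoxia, with Adgre1 at 0 in all 12 samples and Ptprc at or below 0.0348 CPM. The 3 adipocyte markers, mostly Fabp4, summed to 0.326 to 0.790 CPM in WT-labelled normoxia, 0.0867 to 0.337 in TAZKo-labelled normoxia, 2.62 to 4.05 in WT-labelled hypoxia and 0.875 to 1.12 in TAZKo-labelled hypoxia, with Adipoq at or below 0.133 CPM. Both sums were thus highest in WT-labelled hypoxia, as were the summed enzymes described below. The 4 muscle markers, mostly Des, summed to 4.21 to 5.18 CPM in WT-labelled and 9.66 to 10.7 in TAZKo-labelled normoxia, and to 3.001 to 4.803 and 5.98 to 7.14 in hypoxia, with Myod1 at 0 in all samples. The 4 endothelial markers, mostly Tek, summed to 14.5 to 21.0 CPM in WT-labelled and 3.84 to 7.45 CPM in TAZKo-labelled samples, with Cdh5 at or below 0.0692 CPM. The 4 epithelial markers, mostly Krt18, summed to 97.9 to 152 CPM, lowest in TAZKo-labelled normoxia. The part of these markers in the results below was not tested. In bulk RNA, a change in the share of some cells and a change in transcript per cell cannot be told apart. All samples numbered 1 were run on lane 4 and all numbered 3 on lane 5, while those numbered 2 were on lane 4 in normoxia and lane 5 in hypoxia. WT-labelled normoxia sample 1 had the lowest mitochondrial share of counts, 0.921% against up to 1.93%. Calls that changed without it are named beside the genes, some of them in comparisons that the sample is not part of.

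The stretches of DNA before 5 of the genes are shown here because sterol control of this pathway is read from short motifs near the gene start, and they belong to 3 enzyme genes that were lower in TAZKo-labelled hypoxia and to the exporter Abca1 and the receptor Lrp1, which were higher. They were picked with these results known, so they illustrate and do not test a link between motif and level. RefSeq start windows of GRCm38.p6 were at hand for 24 of the 30 genes, and not for Sqle, Fdps, Fdft1, Abcg1, Npc1 and Stard4. Each line gives the 250 bases before the RefSeq start, 5′ to 3′ on the gene's strand, with capitals for a sterol regulatory element, searched as TCACNCCAC, and for the NF-Y box CCAAT, both on either strand. The windows are chr13:119690101-119690350 on the plus strand for Hmgcs1, chr8:122443423-122443672 on the minus strand for Mvd, chrX:72918271-72918520 on the plus strand for Nsdhl, chr4:53159896-53160145 on the minus strand for Abca1 and chr10:127621149-127621398 on the minus strand for Lrp1.
Hmgcs1: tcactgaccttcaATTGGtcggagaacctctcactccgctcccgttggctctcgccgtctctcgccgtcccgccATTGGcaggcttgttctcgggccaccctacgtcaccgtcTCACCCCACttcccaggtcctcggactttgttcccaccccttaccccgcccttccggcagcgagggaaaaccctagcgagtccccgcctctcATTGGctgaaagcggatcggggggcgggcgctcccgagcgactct
Mvd: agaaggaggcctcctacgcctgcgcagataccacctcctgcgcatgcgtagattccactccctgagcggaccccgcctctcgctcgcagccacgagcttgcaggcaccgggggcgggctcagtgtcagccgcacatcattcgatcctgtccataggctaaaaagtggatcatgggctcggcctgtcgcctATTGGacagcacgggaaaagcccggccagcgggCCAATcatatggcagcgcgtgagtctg
Nsdhl: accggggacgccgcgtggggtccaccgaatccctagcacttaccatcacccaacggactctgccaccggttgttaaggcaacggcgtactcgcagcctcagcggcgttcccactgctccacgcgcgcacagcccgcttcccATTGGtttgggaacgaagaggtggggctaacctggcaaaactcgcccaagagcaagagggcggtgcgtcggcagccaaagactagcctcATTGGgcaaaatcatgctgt
Abca1: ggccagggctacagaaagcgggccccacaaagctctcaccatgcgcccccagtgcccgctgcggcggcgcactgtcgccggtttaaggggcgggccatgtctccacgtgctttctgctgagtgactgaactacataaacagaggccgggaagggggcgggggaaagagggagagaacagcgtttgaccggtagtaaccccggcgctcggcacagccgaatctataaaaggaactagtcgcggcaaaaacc
Lrp1: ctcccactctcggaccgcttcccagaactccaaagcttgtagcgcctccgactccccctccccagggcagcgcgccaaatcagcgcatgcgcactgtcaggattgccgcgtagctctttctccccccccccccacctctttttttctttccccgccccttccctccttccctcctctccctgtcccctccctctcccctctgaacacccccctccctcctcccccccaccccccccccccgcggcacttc

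The Hmgcs1 window held TCACCCCAC from 137 to 129 bases before the start and 3 NF-Y boxes, the nearest 45 to 41 bases before the start. Mvd and Nsdhl had 2 NF-Y boxes each, and the windows of Abca1 and Lrp1 had none. Over windows that also include 50 bases after the start, the sterol element with these letters was present in 1 of the 24 genes, Hmgcs1, against 1.44% of 27025 genes. An NF-Y box was present in 20 of the 24, against 41.1% of all genes, and was missing from Scap, Acat2, Lrp1 and Abca1. Genes with at least 1 box thus included enzymes such as Mvd and also Insig2, Soat1, Npc2 and Mylip, while the enzyme Acat2 had none. A link between the box and the levels was not tested. The hypoxia response core ACGTG was present in 6 of the 24, namely Scap, Insig1, Hsd17b7, Sc5d, Dhcr7 and Abca1, against 21.8% of all genes. Of the printed windows, that of Abca1 held it on both strands, 147 to 142 bases before the start. A gene with several RefSeq starts was counted if any of its windows matched. The boxes of Insig2, Pmvk and Dhcr7 and the core of Dhcr7 were each in only 1 of the gene's windows. A match is a description of letters and not of binding.

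Under hypoxia the genes of this set rose together in the WT-labelled cells and rose less in the TAZKo-labelled cells. In WT-labelled cells 26 of the 29 tested genes rose, 1 fell and 2 did not pass the edgeR test at an adjusted p under 0.05, where 26% of all tested genes rose and 25% fell. The median log2 difference of the 29 genes was 1.25, or 2.38-fold, against 0.01 over all genes. In TAZKo-labelled cells 23 of the 29 rose and 6 did not pass, where 22.2% of all genes rose and 21.6% fell, and the median was 0.67, or 1.59-fold. None fell there by edgeR, none had a negative difference at an unadjusted p under 0.05, and DESeq2 also called 0 lower. A rise of at least 2-fold was called for 20 genes in WT-labelled and 8 in TAZKo-labelled cells, a size called in either direction for 11.2% and 8.44% of all genes. All 23 genes that rose in TAZKo-labelled cells had also risen in WT-labelled cells, and the estimate was smaller in TAZKo-labelled cells for 21 of them, the exceptions being Srebf2 and Npc2.

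**Figure D1:**
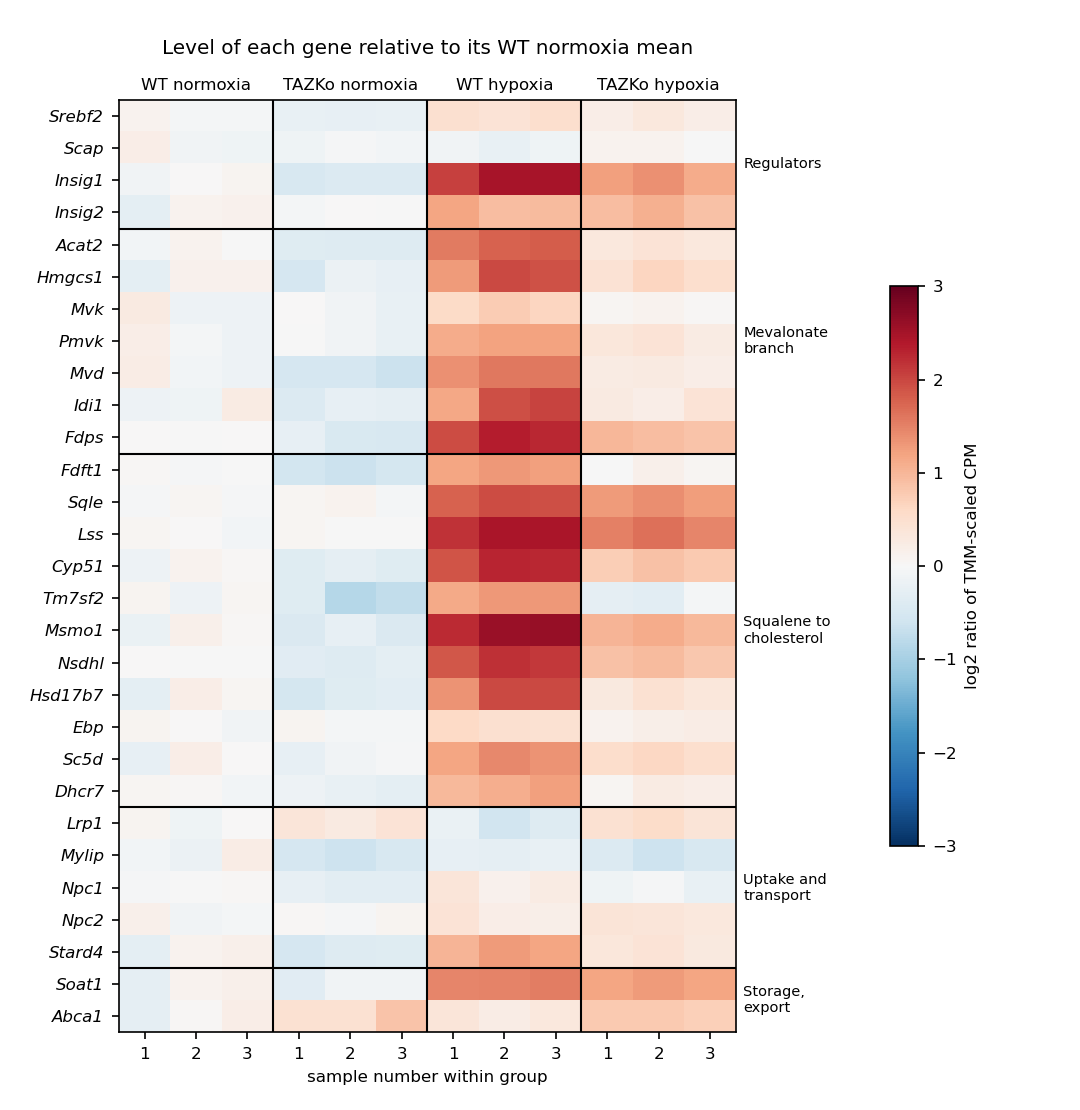
Level of the 29 tested genes (rows, by role) in each of the 12 samples (columns), as the log2 ratio of TMM-scaled CPM to the gene's mean in the 3 samples labelled WT normoxia; red is higher and blue lower. The 18 enzyme rows are darkest red in the 3 columns labelled WT hypoxia and paler in those labelled TAZKo hypoxia.

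Scaling moved these counts somewhat. With library size alone, the median of all genes moved by -0.11 in the WT-labelled hypoxia comparison, all genes split into 2966 higher and 4817 lower in place of 3750 and 3605, and the members into 23 higher and 3 lower. In the TAZKo-labelled comparison that scaling gave 2470 higher and 4393 lower over all genes in place of 3198 and 3111, and 20 members higher with none lower. Within lane 4 the median difference of the 29 genes was 1.20 in WT-labelled and 0.69 in TAZKo-labelled cells, and within lane 5 it was 1.36 and 0.62. Every called gene kept its sign in both lanes, with 1 sample per hypoxia group in lane 4 and 1 per normoxia group in lane 5. Without WT-labelled normoxia sample 1, 25 members rose and 1 fell in WT-labelled hypoxia, and 26 rose in TAZKo-labelled hypoxia. Of the 14682 genes tested in that fit, 3901 rose and 3778 fell in WT-labelled hypoxia. In TAZKo-labelled hypoxia 3808 rose and 3870 fell.

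Between the genotypes, most of the set was lower in TAZKo-labelled cells, and the gap was wider in hypoxia. In hypoxia 23 of the 29 genes were lower in TAZKo-labelled cells, 2 were higher and 4 did not pass, where 16.9% of all tested genes were lower and 15.8% higher. In normoxia 13 were lower, 2 were higher and 14 did not pass, where 14.9% of all genes were lower and 15.6% higher. The median difference was -0.82 in hypoxia and -0.30 in normoxia, against -0.01 and 0.01 over all genes. A difference of at least 2-fold was called for 12 genes in hypoxia, all lower, and for none in normoxia. Over all genes, 5.82% in hypoxia and 5.96% in normoxia were called at that size in either direction. There were 12 genes lower in both conditions and 11 that were called lower in hypoxia and not called in normoxia. These comparisons share samples with the hypoxia comparisons above.

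Genotype differences of all genes also varied by chromosome, which touches a few members. The median TAZKo minus WT difference over all tested genes was 0.31 in normoxia and 0.29 in hypoxia on chromosome 10, which carries Lss and Lrp1, and -0.27 and -0.28 on chromosome 19, which carries Tm7sf2. It was -0.22 and -0.28 on chromosome 18, which carries Npc1 and Stard4, -0.16 and -0.15 on chromosome 8, which carries Msmo1 and Mvd, and 0.13 and 0.13 on chromosome 4, which carries Abca1. On chromosome 3, which carries Pmvk and Fdps, the median was 0.13 in normoxia and 0.04 in hypoxia. The genotype differences of Npc1, -0.30 and -0.37, were of about the size of its chromosome's median. Their part in the genotype differences of these genes was not tested.

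Among the regulators, Srebf2 and Insig2 rose by similar estimates under both labels, and Insig1 rose more in WT-labelled cells. Scap passed no test except in some alternative fits. Srebf2 stood at 499, 445 and 443 CPM in the 3 WT-labelled normoxia samples, 394, 388 and 394 in TAZKo-labelled normoxia, 640.0, 614 and 659.7 in WT-labelled hypoxia and 532, 573 and 535 in TAZKo-labelled hypoxia. The groups did not overlap in any of the 4 comparisons. It rose in hypoxia by log2 0.47 ± 0.06 (SE) in WT-labelled and 0.48 ± 0.06 in TAZKo-labelled cells (edgeR adjusted p = 2.13e-05 and 2.45e-05). The responses differed by 0.01, with a 95% confidence interval of -0.17 to 0.20 (edgeR adjusted p = 0.955). It was 1.18-fold lower in TAZKo-labelled cells in normoxia and 1.17-fold lower in hypoxia (edgeR adjusted p = 0.0079 and 0.0104).

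Insig1, which is itself a target of SREBP-2 and retains SCAP in the endoplasmic reticulum, stood at 38.4, 42.1 and 44.01 CPM in the 3 WT-labelled normoxia samples, 29.5, 31.03 and 31.3 in TAZKo-labelled normoxia, 172, 231 and 230.3 in WT-labelled hypoxia and 96.9, 108 and 89.7 in TAZKo-labelled hypoxia. Within WT-labelled hypoxia, sample 1 was well below samples 2 and 3, and all 3 were above every other sample. The rise was 5.09-fold in WT-labelled and 3.202-fold in TAZKo-labelled cells (log2 2.35 ± 0.11 and 1.68 ± 0.11, SE; edgeR adjusted p = 1.38e-09 and 5.97e-08). The TAZKo-labelled level was 1.36-fold lower in normoxia and 2.15-fold lower in hypoxia (edgeR adjusted p = 0.00808 and 3.85e-06). The responses differed by log2 -0.67 ± 0.15 (edgeR adjusted p = 0.0354). That last call was lost in 10 of the 12 fits that left out 1 sample, with estimates of -0.71 to -0.57 and an edgeR adjusted p of up to 0.130, and was kept only without WT-labelled normoxia sample 1 or WT-labelled hypoxia sample 1.

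Insig2, the other retention protein, went from 53.5 ± 8.27 to 109 ± 11.5 CPM (SD, n = 3) in WT-labelled cells and from 52.96 ± 1.06 to 105 ± 7.58 CPM in TAZKo-labelled cells. The rise was 2.03-fold and 1.97-fold (edgeR adjusted p = 2.86e-06 and 6.29e-06), and the difference between the responses was -0.04, with a 95% confidence interval of -0.36 to 0.27. Its genotype difference in hypoxia was -0.06, with a 95% confidence interval of -0.28 to 0.16, beside -1.11 for Insig1. Scap, the escort of SREBP-2, ranged from 68.4 to 92.9 CPM over all samples, and its genotype difference in hypoxia was 0.22 ± 0.08 (edgeR adjusted p = 0.0564). That value passed the edgeR test without WT-labelled normoxia sample 1 (0.22, adjusted p = 0.0035) or sample 3 (0.21, adjusted p = 0.0494). No normoxia sample is part of this difference. Over all genes its calls went from 2283 higher and 2440 lower to 2921 and 3228 without sample 1, and to 2230 and 2590 without sample 3. The Scap value also passed that test with lane as a covariate (0.22, adjusted p = 0.0467) and with library size alone (0.24, adjusted p = 0.0451). It passed that test with only the samples compared (0.24, adjusted p = 0.00633) and without a filter (0.24, adjusted p = 0.0273). The difference of Scap between hypoxia and normoxia, -0.16 in WT-labelled cells, passed it without WT-labelled normoxia sample 2 (-0.26, adjusted p = 0.0353) or sample 3 (-0.28, adjusted p = 0.016), with library size alone (-0.27, adjusted p = 0.0184) and without a filter (-0.23, adjusted p = 0.0234). The difference of 0.15 in TAZKo-labelled cells passed it without WT-labelled normoxia sample 1 (0.15, adjusted p = 0.0261). The exons of Scap overlap 5830462I19Rik on the opposite strand over 13.2% of their length, and the strand setting of the counting is not given.

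**Figure D2:**
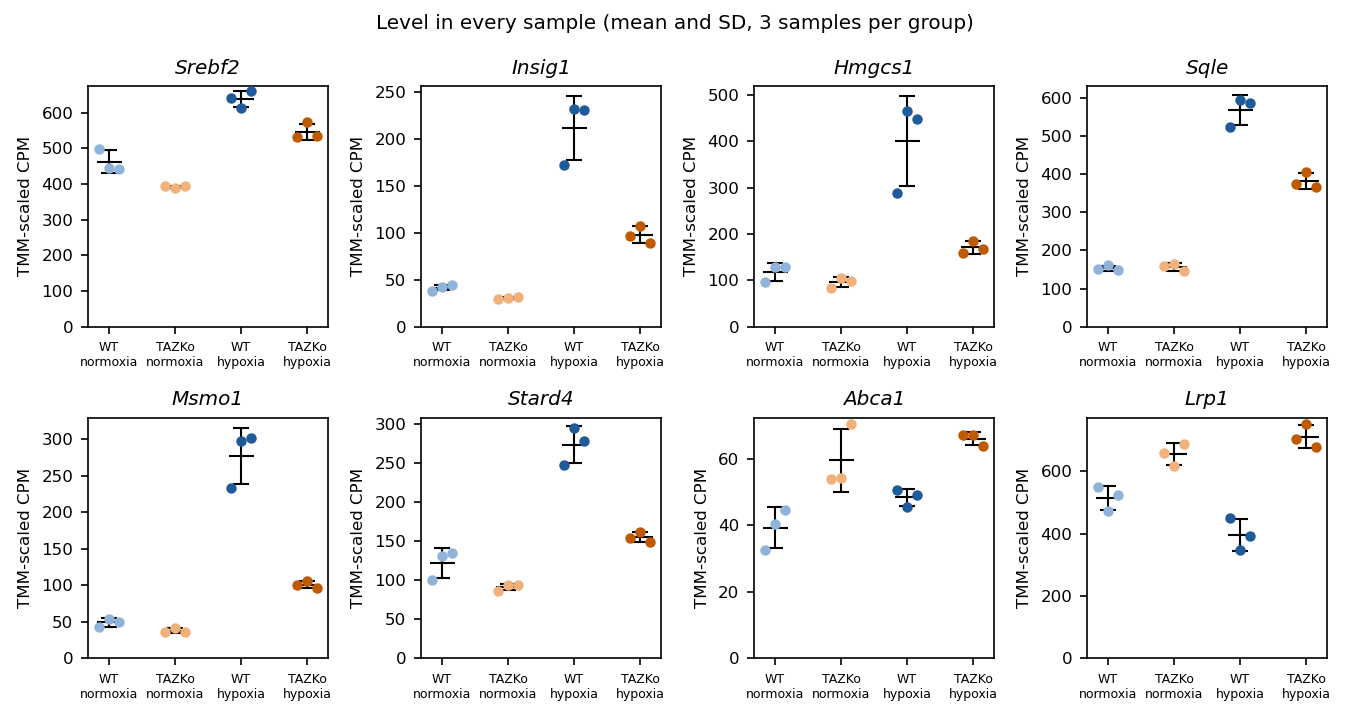
TMM-scaled CPM (vertical axes, linear and starting at 0) of 8 genes in every sample of the 4 labelled groups; points are samples, and black marks are the mean and SD of 3 samples. Insig1, Hmgcs1, Sqle, Msmo1 and Stard4 have their highest points in WT-labelled hypoxia, while Lrp1 and Abca1 are higher in the TAZKo-labelled groups.

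The 7 genes of the mevalonate branch all rose in hypoxia in WT-labelled cells, and 6 of them, all but Mvk, rose in TAZKo-labelled cells. All 7 were lower in TAZKo-labelled cells in hypoxia, and 3 of them, Acat2, Mvd and Fdps, were lower in normoxia too. The difference between the responses passed the edgeR test for 4, namely Acat2, Pmvk, Mvd and Fdps.

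Acat2, the thiolase that joins 2 acetyl-CoA molecules at the start of the pathway, stood at 59.6, 67.2 and 62.04 CPM in the 3 WT-labelled normoxia samples, 48.6, 48.2 and 47.8 in TAZKo-labelled normoxia, 186, 216 and 221 in WT-labelled hypoxia and 78.2, 83.5 and 78.7 in TAZKo-labelled hypoxia. The 3 WT-labelled hypoxia samples were above every other sample. The rise was 3.300-fold in WT-labelled and 1.66-fold in TAZKo-labelled cells (edgeR adjusted p = 4.84e-10 and 2.82e-06). The responses differed by log2 -0.99 ± 0.10 (SE), with the smallest adjusted p of the set, 0.000241 in edgeR. Because 45.9% of the 50-base words of its longest transcript also occur in the neighbouring paralog Acat3, the Acat2 counts are uncertain.

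Hmgcs1, the synthase whose promoter is shown above, went from 119 ± 19.1 to 402 ± 97.4 CPM (SD, n = 3) in WT-labelled cells and from 96.3 ± 11.3 to 171 ± 13.3 CPM in TAZKo-labelled cells. Its rise was 3.38-fold and 1.78-fold (edgeR adjusted p = 1.26e-06 and 0.00101), and it was 2.34-fold lower in TAZKo-labelled cells in hypoxia (edgeR adjusted p = 6.82e-05). The difference between its responses, -0.93 ± 0.23, missed the threshold (edgeR adjusted p = 0.0521) and passed it without WT-labelled normoxia sample 1 (-0.80, adjusted p = 0.0448) or WT-labelled hypoxia sample 1 (-1.09, adjusted p = 0.00427). It also passed in every alternative that kept all samples, with an adjusted p of 0.0216 with lane as a covariate, 0.00311 in DESeq2 and at most 0.0489, the value with library size alone. In normoxia its genotype difference was -0.30 ± 0.16 (edgeR adjusted p = 0.184). It passed with the sample number as a block (-0.30, edgeR adjusted p = 0.0155) and without a filter (-0.33, adjusted p = 0.000394). It also passed without WT-labelled normoxia sample 1 (-0.43, adjusted p = 0.0427) and without WT-labelled hypoxia sample 1 (-0.34, adjusted p = 0.0441). The exons of Hmgcs1 overlap Gm48342 on the opposite strand over 12.1% of their length, and the strand setting of the counting is not given.

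Mvk and Pmvk, the kinases that add phosphates to mevalonate, had the smaller rises of the branch. Mvk rose 1.58-fold in WT-labelled cells (edgeR adjusted p = 0.000128), and its difference in TAZKo-labelled cells was 0.17 ± 0.10 (edgeR adjusted p = 0.202). Without WT-labelled normoxia sample 1 that value passed the edgeR test (0.17, adjusted p = 0.0399), as did the difference between the Mvk responses (-0.64, adjusted p = 0.00221, against -0.49 and 0.11), which also passed without a filter (-0.44, adjusted p = 0.0217). Pmvk rose 2.26-fold and 1.36-fold (edgeR adjusted p = 1.33e-07 and 0.000981).

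Mvd, the decarboxylase that yields isopentenyl diphosphate, stood at 53.5, 43.5 and 41.6 CPM in the 3 WT-labelled normoxia samples, 32.6, 32.3 and 29.5 in TAZKo-labelled normoxia, 120.1, 137 and 139 in WT-labelled hypoxia and 54.3, 55.6 and 52.9 in TAZKo-labelled hypoxia. The WT-labelled and TAZKo-labelled samples did not overlap in either condition. Mvd was 1.47-fold lower in TAZKo-labelled cells in normoxia and 2.44-fold lower in hypoxia (edgeR adjusted p = 0.000526 and 2.45e-07).

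Idi1, the isomerase of isopentenyl diphosphate, had low counts, with 2.21, 2.24 and 2.898 CPM in the 3 WT-labelled normoxia samples, 1.85, 2.08 and 2.04 in TAZKo-labelled normoxia, 5.503, 9.38 and 10.01 in WT-labelled hypoxia and 2.96, 2.802 and 3.24 in TAZKo-labelled hypoxia. WT-labelled hypoxia sample 1 was well below samples 2 and 3, and all 3 were above the TAZKo-labelled hypoxia samples. Idi1 was 2.78-fold lower in TAZKo-labelled cells in hypoxia (log2 -1.48 ± 0.19, SE; edgeR adjusted p = 6.43e-05). Its rise in TAZKo-labelled cells, 0.59 ± 0.22 (edgeR adjusted p = 0.0473), was lost in 9 of 12 fits without 1 sample, with an adjusted p of up to 0.159, and was kept only without WT-labelled normoxia sample 1 or WT-labelled hypoxia sample 1 or 3. It was also lost with lane as a covariate (0.47, adjusted p = 0.0592) and with library size alone (0.4967, adjusted p = 0.0881). The difference between its responses, -1.17 ± 0.30, did not pass (edgeR adjusted p = 0.0658) but did without WT-labelled hypoxia sample 1 (-1.36, adjusted p = 0.00253), with lane as a covariate (-1.16, adjusted p = 0.0257), without a filter (-1.12, adjusted p = 0.000437) and in DESeq2 (-1.15, adjusted p = 0.0203). Of its 50-base words, 30.5% occur in another annotated gene, Gm13502.

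Fdps, the synthase of farnesyl diphosphate, stood at 6.63, 6.58 and 6.66 CPM in the 3 WT-labelled normoxia samples, 5.55, 4.85 and 4.76 in TAZKo-labelled normoxia, 25.8, 33.8 and 31.6 in WT-labelled hypoxia and 13.3, 12.6 and 11.99 in TAZKo-labelled hypoxia. Every hypoxia sample was above every normoxia sample, and the WT-labelled hypoxia samples stood highest. It rose 4.59-fold in WT-labelled and 2.49-fold in TAZKo-labelled cells (edgeR adjusted p = 1.63e-09 and 6.86e-07). Its lower level in TAZKo-labelled normoxia, -0.39 (edgeR adjusted p = 0.021), was no longer called without TAZKo-labelled normoxia sample 3 (-0.38, adjusted p = 0.064). Its exons overlap Gm43738 over 26.7% of their length, on the same strand.

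All 11 genes from squalene to cholesterol rose in hypoxia under both labels, and all 11 were lower in TAZKo-labelled cells in hypoxia. The response was smaller in TAZKo-labelled cells for 10 of them, and for the exception, Ebp, the responses differed by -0.33 ± 0.10 (edgeR adjusted p = 0.107). In normoxia 5 of the 11, namely Fdft1, Cyp51, Tm7sf2, Msmo1 and Nsdhl, were lower in TAZKo-labelled cells. The median rise was 3.48-fold in WT-labelled and 1.70-fold in TAZKo-labelled cells.

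Fdft1, squalene synthase, stood at 59.7, 56.5 and 57.6 CPM in the 3 WT-labelled normoxia samples, 39.7, 36.9 and 40.3 in TAZKo-labelled normoxia, 132, 143 and 137 in WT-labelled hypoxia and 57.2, 63.9 and 60.5 in TAZKo-labelled hypoxia. The TAZKo-labelled hypoxia samples were at the level of the WT-labelled normoxia samples and overlapped them. Fdft1 was 1.48-fold lower in TAZKo-labelled cells in normoxia and 2.26-fold lower in hypoxia (edgeR adjusted p = 1.45e-05 and 1.43e-08). Its exons overlap Ctsb on the opposite strand over 18.3% of their length, and since the strand setting of the counting is not given, reads of the 2 genes may not be told apart.

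Sqle and Lss, the epoxidase of squalene and the cyclase that forms lanosterol, had a genotype difference near 0 in normoxia and lower levels in TAZKo-labelled cells in hypoxia. Sqle went from 154 ± 6.62 to 568 ± 39.8 CPM (SD, n = 3) in WT-labelled cells and from 157 ± 9.57 to 382 ± 21.5 CPM in TAZKo-labelled cells. Its genotype difference was 0.03 in normoxia, with a 95% confidence interval of -0.12 to 0.18, and -0.57 in hypoxia (edgeR adjusted p = 0.777 and 3.38e-05). Lss stood at 88.6, 85.9 and 81.02 CPM in the 3 WT-labelled normoxia samples, 88.6, 84.1 and 84.1 in TAZKo-labelled normoxia, 380.2, 469 and 469 in WT-labelled hypoxia and 242, 268 and 237 in TAZKo-labelled hypoxia. The WT-labelled and TAZKo-labelled samples overlapped in normoxia and were apart in hypoxia. Its genotype difference in normoxia was 0.01, with a 95% confidence interval of -0.17 to 0.19, and in hypoxia it was 1.76-fold lower in TAZKo-labelled cells (edgeR adjusted p = 0.962 and 5.6e-06). Both responses differed between the labels, by -0.60 ± 0.10 for Sqle and -0.83 ± 0.12 for Lss (edgeR adjusted p = 0.00554 and 0.00224).

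Cyp51, the lanosterol demethylase, stood at 126, 151 and 144 CPM in the 3 WT-labelled normoxia samples, 108, 116 and 109.9 in TAZKo-labelled normoxia, 523, 680.4 and 669.9 in WT-labelled hypoxia and 235, 257 and 240.0 in TAZKo-labelled hypoxia. The 3 WT-labelled hypoxia samples were more than 2-fold above every TAZKo-labelled hypoxia sample, with sample 1 the lowest of the 3. It rose 4.45-fold in WT-labelled and 2.19-fold in TAZKo-labelled cells (edgeR adjusted p = 1.1e-09 and 8.2e-07), and the responses differed by log2 -1.02 ± 0.14 (edgeR adjusted p = 0.00178). Its lower level in TAZKo-labelled normoxia, -0.33 (edgeR adjusted p = 0.0183), was no longer called without WT-labelled normoxia sample 2 (-0.30, adjusted p = 0.0517).

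Tm7sf2, a sterol reductase that acts on the product of Cyp51, had low counts, with 9.24, 7.76 and 9.02 CPM in the 3 WT-labelled normoxia samples, 6.69, 4.77 and 5.16 in TAZKo-labelled normoxia, 19.1, 21.3 and 21.5 in WT-labelled hypoxia and 7.19, 6.95 and 8.36 in TAZKo-labelled hypoxia. The TAZKo-labelled hypoxia samples overlapped the WT-labelled normoxia samples. It was 1.57-fold lower in TAZKo-labelled cells in normoxia and 2.75-fold lower in hypoxia (edgeR adjusted p = 0.00177 and 1.02e-06). The exons of Tm7sf2 overlap Vps51 over 12.1% of their length, on the same strand, and the counting's treatment of shared reads is not given. The rise in TAZKo-labelled cells, 0.44 ± 0.13 (edgeR adjusted p = 0.0139), was lost without TAZKo-labelled normoxia sample 2 (0.33, adjusted p = 0.0827) or 3 (0.36, adjusted p = 0.0788) or TAZKo-labelled hypoxia sample 3 (0.32, adjusted p = 0.0929), and with library size alone (0.35, adjusted p = 0.0505). The difference between its responses, -0.81 ± 0.18 (edgeR adjusted p = 0.0297), was lost in 8 of 12 such fits, with an adjusted p of up to 0.103, and was kept without WT-labelled normoxia sample 1, TAZKo-labelled normoxia sample 2, WT-labelled hypoxia sample 1 or TAZKo-labelled hypoxia sample 3.

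Msmo1, the methyl sterol oxidase, had the largest rise of the set in WT-labelled cells, and stood at 42.6, 54.3 and 50.2 CPM in the 3 WT-labelled normoxia samples, 36.2, 41.5 and 36.3 in TAZKo-labelled normoxia, 233, 297 and 301 in WT-labelled hypoxia and 99.7, 106 and 96.04 in TAZKo-labelled hypoxia. Every hypoxia sample was above every normoxia sample, and the WT-labelled hypoxia samples were more than 2-fold above the TAZKo-labelled ones. The rise was 5.65-fold against 2.65-fold (log2 2.50 ± 0.11 and 1.40 ± 0.11, SE; edgeR adjusted p = 8.08e-10 and 3.4e-07), and the responses differed by -1.09 ± 0.15 (edgeR adjusted p = 0.00214). In normoxia its difference of -0.37 (edgeR adjusted p = 0.0208) was no longer called without WT-labelled normoxia sample 2 (-0.32, adjusted p = 0.0633) or TAZKo-labelled normoxia sample 1 (-0.36, adjusted p = 0.0559) or 3 (-0.37, adjusted p = 0.0625).

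Hsd17b7, a ketoreductase of the same demethylation steps, stood at 12.6, 17.8 and 16.2 CPM in the 3 WT-labelled normoxia samples, 10.7, 11.96 and 12.5 in TAZKo-labelled normoxia, 39.3, 61.6 and 60.99 in WT-labelled hypoxia and 18.95, 21.2 and 19.5 in TAZKo-labelled hypoxia. WT-labelled hypoxia sample 1 was again the lowest of its 3 and was above all other groups. Hsd17b7 was 2.71-fold lower in TAZKo-labelled cells in hypoxia (edgeR adjusted p = 1.25e-05). In normoxia the difference of -0.40 ± 0.17 missed the threshold (edgeR adjusted p = 0.0881) and passed with the sample number as a block (-0.39, adjusted p = 0.0124), with lane as a covariate (-0.41, adjusted p = 0.0442), without a filter (-0.43, adjusted p = 0.000476), without WT-labelled normoxia sample 1 (-0.53, adjusted p = 0.0235) and without WT-labelled hypoxia sample 1 (-0.44, adjusted p = 0.0118). The difference between its responses, -1.04 ± 0.23 (edgeR adjusted p = 0.0303), was lost in 9 of 12 fits without 1 sample, with an adjusted p of up to 0.111, and was kept only without WT-labelled normoxia sample 1 or 2 or WT-labelled hypoxia sample 1.

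The remaining 4 enzymes of this stage covered a wide range. Nsdhl, the dehydrogenase that works with Hsd17b7, rose 4.19-fold in WT-labelled and 2.34-fold in TAZKo-labelled cells, and the responses differed by -0.84 ± 0.11 (edgeR adjusted p = 0.00171). Sc5d, the desaturase before the last reductions, rose 2.503-fold and 1.59-fold. Its difference between responses, -0.65 ± 0.15 (edgeR adjusted p = 0.0323), was lost in 9 of 12 fits without 1 sample, with an adjusted p of up to 0.123, and was kept only without WT-labelled normoxia sample 1 or 2 or WT-labelled hypoxia sample 1. Dhcr7, a reductase at the end of the pathway, rose 2.15-fold and 1.31-fold, and the responses differed by -0.71 ± 0.11 (edgeR adjusted p = 0.00453). Its normoxia difference of -0.22 missed the threshold (edgeR adjusted p = 0.0509) and passed it with the sample number as a block (-0.22, adjusted p = 0.0459), with DESeq2 size factors (-0.24, adjusted p = 0.0434), without a filter (-0.25, adjusted p = 0.0332), in DESeq2 (-0.23, adjusted p = 0.0463) and in 8 of the 12 fits without 1 sample, with estimates from -0.30 to -0.19.

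Ebp, the sterol isomerase, had the smallest rise of the enzymes in WT-labelled cells and, after Mvk, the smallest estimate in TAZKo-labelled cells, going from 51.6 ± 3.48 to 73.6 ± 3.71 CPM (SD, n = 3) in WT-labelled cells and from 51.3 ± 2.805 to 58.3 ± 2.31 CPM in TAZKo-labelled cells. Its rise in TAZKo-labelled cells, 0.18 ± 0.07 (edgeR adjusted p = 0.0441), was lost in 11 of 12 fits without 1 sample, with an adjusted p of up to 0.223, and was kept only without WT-labelled normoxia sample 1. It was also lost with DESeq2 size factors (0.19, adjusted p = 0.0555), library size alone (0.0893, adjusted p = 0.337), no filter (0.16, adjusted p = 0.207) and in DESeq2 (0.18, adjusted p = 0.0706). Without WT-labelled normoxia sample 1 the difference between its responses passed (-0.37, edgeR adjusted p = 0.0305).

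**Figure D3:**
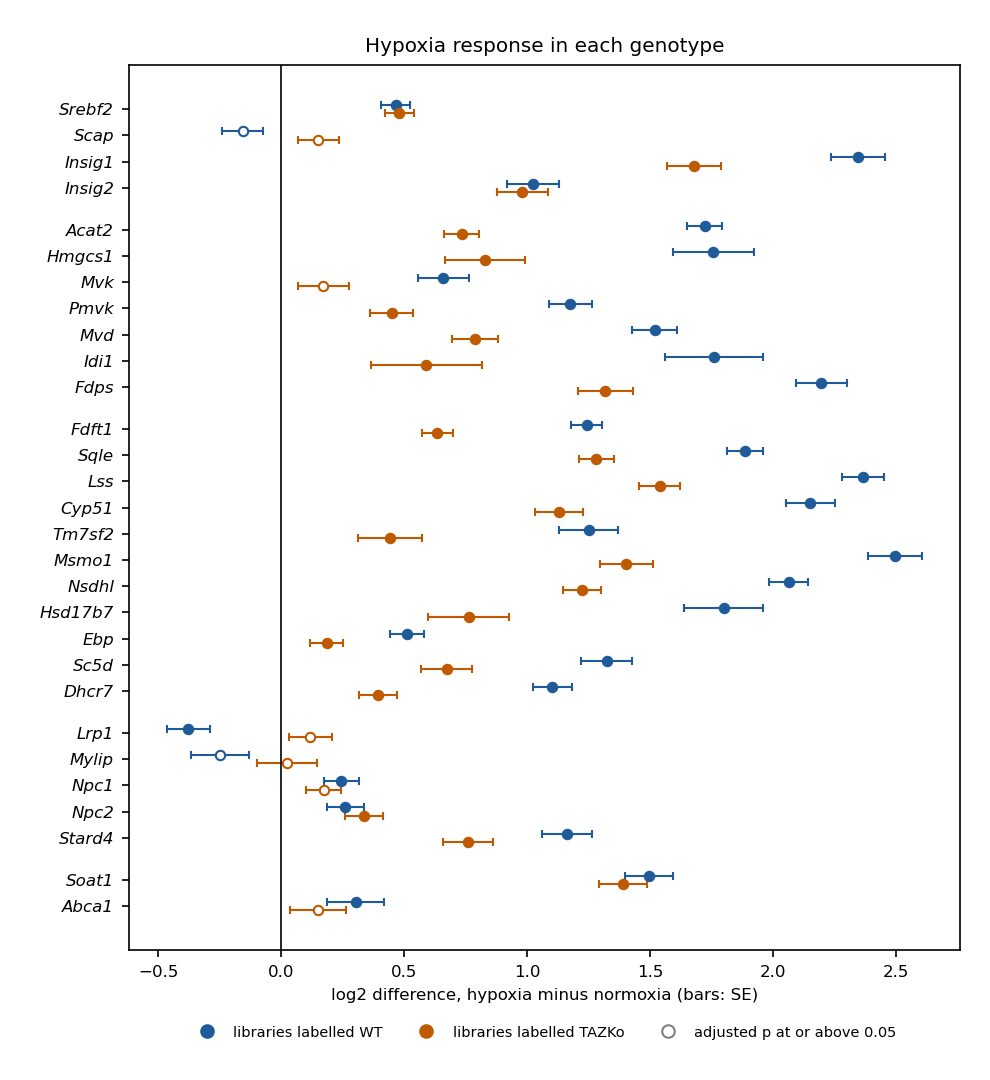
Log2 difference between hypoxia and normoxia (horizontal axis, bars are SE) for each of the 29 tested genes in libraries labelled WT (blue) and TAZKo (orange); filled points have an edgeR adjusted p under 0.05. For the 18 enzymes the orange point lies to the left of the blue one, while Srebf2, Insig2, Npc2 and Soat1 have the 2 points close together.

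The 18 enzymes can also be read sample by sample. Their summed level was 973 to 1034 CPM in WT-labelled normoxia, 839 to 879 CPM in TAZKo-labelled normoxia, 2995 to 3712 CPM in WT-labelled hypoxia and 1654 to 1801 CPM in TAZKo-labelled hypoxia. The 4 ranges did not overlap. WT-labelled hypoxia sample 1 was the lowest of its group for 17 of the 18 enzymes, and in the other groups no sample was lowest for more than 9. That sample was on lane 4 and the other 2 of its group were on lane 5, so sample and lane cannot be told apart there. Without it, 22 members were lower in TAZKo-labelled hypoxia and 23 rose in WT-labelled hypoxia. Of the 14676 genes tested in that fit, 2324 were lower and 3259 rose in these comparisons, in place of 2440 and 3750 of 14408. TAZKo-labelled hypoxia sample 2 was the highest of its group for 14 of the 18 enzymes, and in the other groups no sample was highest for more than 10.

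The genes of uptake and intracellular transport did not move as a group. Lrp1, a large endocytic receptor of lipoproteins and proteases, stood at 549, 474 and 523 CPM in the 3 WT-labelled normoxia samples, 659, 617 and 687 in TAZKo-labelled normoxia, 451, 347 and 391 in WT-labelled hypoxia and 702, 752 and 679 in TAZKo-labelled hypoxia. The TAZKo-labelled samples were above the WT-labelled ones in both conditions without overlap. Lrp1 fell in WT-labelled hypoxia by log2 -0.38 ± 0.09 (SE; edgeR adjusted p = 0.00272), and in TAZKo-labelled cells its difference was 0.12 ± 0.09 (edgeR adjusted p = 0.301). It was 1.79-fold higher in TAZKo-labelled cells in hypoxia (edgeR adjusted p = 9.8e-06) and 1.27-fold higher in normoxia (edgeR adjusted p = 0.00908). The normoxia call was lost without WT-labelled normoxia sample 2 (0.26, adjusted p = 0.0589) or TAZKo-labelled normoxia sample 3 (0.28, adjusted p = 0.0624). The difference between its responses, 0.50 ± 0.12 (edgeR adjusted p = 0.0558), passed without WT-labelled normoxia sample 1 (0.45, adjusted p = 0.049) or 2 (0.58, adjusted p = 0.0334) or WT-labelled hypoxia sample 1 (0.62, adjusted p = 0.00661), and also with library size alone (0.51, adjusted p = 0.0454), without a filter (0.55, adjusted p = 1.93e-05) and in DESeq2 (0.52, adjusted p = 0.00989). All tested genes of its chromosome had a median genotype difference of 0.31 in normoxia and 0.29 in hypoxia, as given above.

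Mylip, the LXR-controlled ligase that degrades lipoprotein receptors, had low counts, with 5.79, 5.48 and 7.24 CPM in the 3 WT-labelled normoxia samples, 4.33, 4.03 and 4.42 in TAZKo-labelled normoxia, 5.202, 5.16 and 5.28 in WT-labelled hypoxia and 4.62, 4.01 and 4.43 in TAZKo-labelled hypoxia. The TAZKo-labelled samples were below the WT-labelled ones in both conditions, and the hypoxia and normoxia samples of the TAZKo-labelled cells overlapped. It was 1.45-fold lower in TAZKo-labelled cells in normoxia (edgeR adjusted p = 0.00356), and the difference in hypoxia was -0.27 ± 0.12 (SE; edgeR adjusted p = 0.114). Its difference in WT-labelled hypoxia, -0.25 ± 0.12 (edgeR adjusted p = 0.0925), passed without WT-labelled normoxia sample 2 (-0.38, adjusted p = 0.022) or TAZKo-labelled hypoxia sample 2 (-0.30, adjusted p = 0.0468), and with library size alone (-0.35, adjusted p = 0.0212).

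Stard4, a soluble sterol carrier, had the largest rise of this group. It went from 122 ± 19.2 to 274 ± 24.1 CPM (SD, n = 3) in WT-labelled cells and from 91.5 ± 4.27 to 155 ± 6.55 CPM in TAZKo-labelled cells, a rise of 2.24-fold and 1.69-fold (edgeR adjusted p = 5.89e-07 and 4.47e-05). It was 1.34-fold lower in TAZKo-labelled cells in normoxia and 1.77-fold lower in hypoxia (edgeR adjusted p = 0.00653 and 3.51e-05). The difference between its responses, -0.40 ± 0.14, did not pass (edgeR adjusted p = 0.175; 95% confidence interval -0.71 to -0.10).

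Npc1 and Npc2, which hand cholesterol out of the lysosome, changed little. Npc1 was 1.23-fold lower in TAZKo-labelled cells in normoxia and 1.29-fold lower in hypoxia (edgeR adjusted p = 0.00555 and 0.00116), while the genotype differences of Npc2 were 0.02 and 0.10 (edgeR adjusted p = 0.852 and 0.353). In hypoxia Npc1 rose 1.19-fold in WT-labelled cells, and Npc2 rose 1.198-fold in WT-labelled and 1.26-fold in TAZKo-labelled cells (edgeR adjusted p = 0.0098, 0.0107 and 0.00263). The rise of Npc1 in WT-labelled cells was lost without WT-labelled normoxia sample 2 (0.18, adjusted p = 0.0735) or WT-labelled hypoxia sample 1 (0.14, adjusted p = 0.121) or 3 (0.19, adjusted p = 0.0737). That of Npc2 was lost without WT-labelled normoxia sample 2 (0.16, adjusted p = 0.125) or 3 (0.18, adjusted p = 0.0992) or WT-labelled hypoxia sample 1 (0.14, adjusted p = 0.138). Both were lost with library size alone (0.14 and 0.15, adjusted p = 0.099 and 0.114) and without a filter (0.17 and 0.18, adjusted p = 0.16 and 0.0582). The value of Npc1 in TAZKo-labelled cells, 0.17 (edgeR adjusted p = 0.0629), passed without WT-labelled normoxia sample 1 (0.17, adjusted p = 0.0395).

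Of the genes of storage and export, Soat1 rose under both labels, and Abca1 was higher in TAZKo-labelled cells. Soat1, the acyltransferase that stores cholesterol as esters, stood at 75.7, 98.04 and 101 CPM in the 3 WT-labelled normoxia samples, 72.2, 85.5 and 85.6 in TAZKo-labelled normoxia, 254, 255 and 265 in WT-labelled hypoxia and 208, 222 and 207 in TAZKo-labelled hypoxia. Every hypoxia sample was more than 2-fold above every normoxia sample of its own label. The rise was 2.82-fold in WT-labelled and 2.62-fold in TAZKo-labelled cells (edgeR adjusted p = 4.21e-08 and 1.38e-07), and the responses differed by -0.11, with a 95% confidence interval of -0.40 to 0.19. Its lower level in TAZKo-labelled hypoxia, -0.28 ± 0.10 (edgeR adjusted p = 0.0379), was lost without any 1 of the 6 hypoxia samples, with estimates of -0.32 to -0.27 and an adjusted p of up to 0.107. In normoxia its difference of -0.18 (edgeR adjusted p = 0.2) passed without WT-labelled normoxia sample 1 (-0.29, adjusted p = 0.00407).

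Abca1, the transporter that loads cholesterol onto apolipoproteins at the cell surface, stood at 32.6, 40.3 and 44.7 CPM in the 3 WT-labelled normoxia samples, 53.8, 54.1 and 70.4 in TAZKo-labelled normoxia, 50.5, 45.6 and 49.02 in WT-labelled hypoxia and 67.02, 67.1 and 63.9 in TAZKo-labelled hypoxia. The TAZKo-labelled samples were above the WT-labelled ones in both conditions without overlap. Abca1 was 1.52-fold higher in TAZKo-labelled cells in normoxia and 1.36-fold higher in hypoxia (log2 0.60 ± 0.12 and 0.45 ± 0.12, SE; edgeR adjusted p = 0.00144 and 0.00896). Its rise in WT-labelled hypoxia, 0.30 ± 0.12 (edgeR adjusted p = 0.0452), was lost in 10 of 12 fits without 1 sample, with an adjusted p of up to 0.195, and was kept only without WT-labelled normoxia sample 3 or TAZKo-labelled normoxia sample 3. It was also lost with lane as a covariate (0.26, adjusted p = 0.0628) and with library size alone (0.197, adjusted p = 0.159). Abcg1, the other LXR-controlled exporter, did not pass the filter on low counts and lay between 0.0362 and 0.292 CPM, close to the floor of 3 counts.

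**Figure D4:**
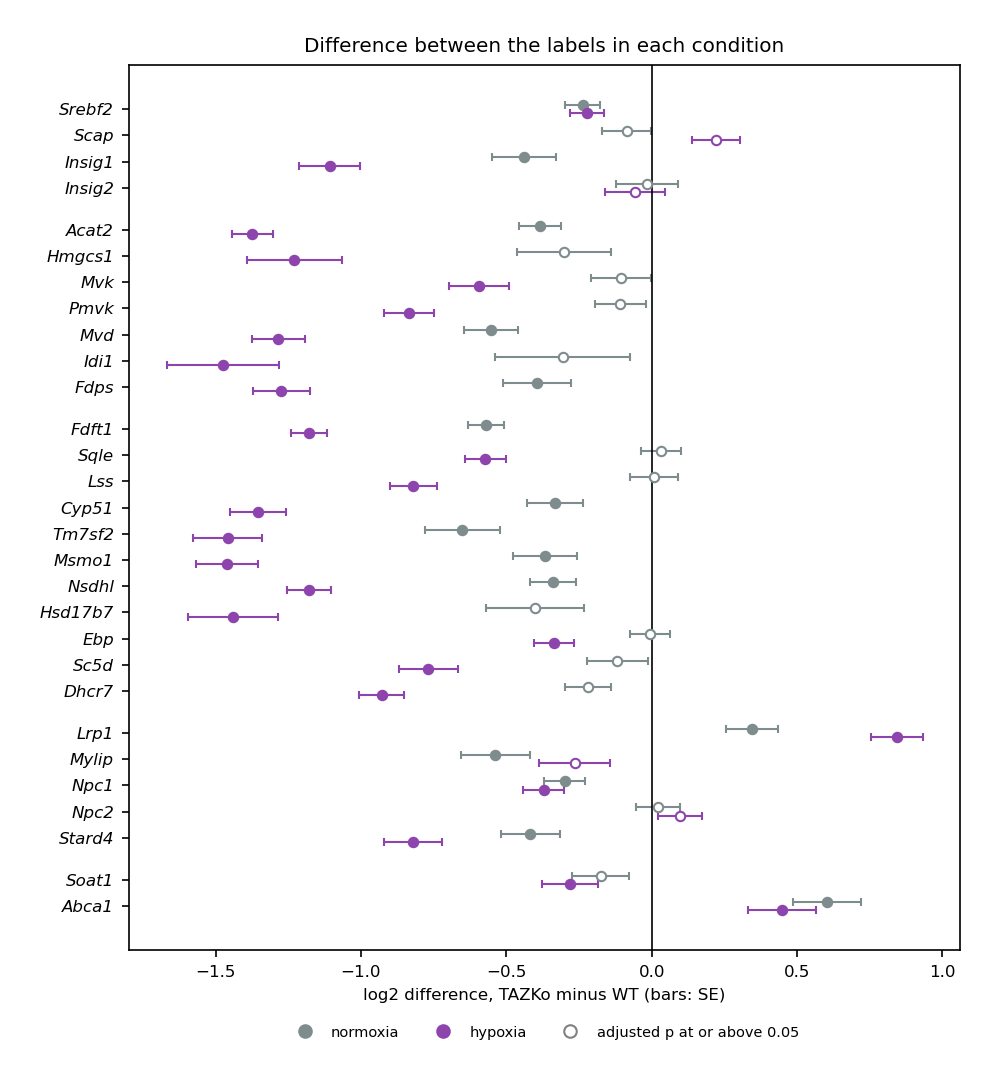
Log2 difference between TAZKo-labelled and WT-labelled libraries (horizontal axis, bars are SE) for the 29 tested genes in normoxia (grey) and hypoxia (purple); filled points have an edgeR adjusted p under 0.05. The purple points of the 18 enzymes lie between -1.48 and -0.34, and Lrp1 and Abca1 lie to the right of 0 in both conditions.

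The order of the genes by level per kilobase of exon changed with hypoxia. On the scale of mean TMM-scaled CPM per kilobase, Srebf2 was highest in WT-labelled normoxia at 64.3, followed by Npc2 at 43.5 and Cyp51 at 31.8. In WT-labelled hypoxia Cyp51 was highest at 141, followed by Sqle at 102 and Srebf2 at 88.8. In TAZKo-labelled hypoxia Srebf2 remained first at 76.1, with Sqle at 68.9 and Npc2 at 55.8. Idi1 was the lowest enzyme in all 4 groups, between 0.568 and 2.37. These orders were not tested.

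The test of the difference between the hypoxia responses puts the set in one view. The response was smaller in TAZKo-labelled cells for 15 of the 29 genes by the edgeR test, where 1.71% of all tested genes had a lower and 0.722% a higher response. These were Insig1 and 14 of the 18 enzymes, and all 15 had risen under both labels. For 3 of them, Msmo1, Hsd17b7 and Cyp51, the difference was at least 2-fold, as for 0.569% of all genes. The median difference over the 29 genes was -0.65, against -0.02 over all genes, and the estimate was negative for 24 of the 29. None was called higher by edgeR, 2 had a positive difference at an unadjusted p under 0.05, and DESeq2 called 1 higher, Lrp1. Of the 15 calls, 11 were kept in every alternative run, and the 4 that were not are Insig1, Tm7sf2, Hsd17b7 and Sc5d, described above. Within lane 4 the median difference was -0.54 and within lane 5 it was -0.68, and all 15 kept their sign in both lanes. Each hypoxia group had 1 sample in lane 4 and each normoxia group 1 in lane 5, all among the samples that gave the calls.

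**Figure D5:**
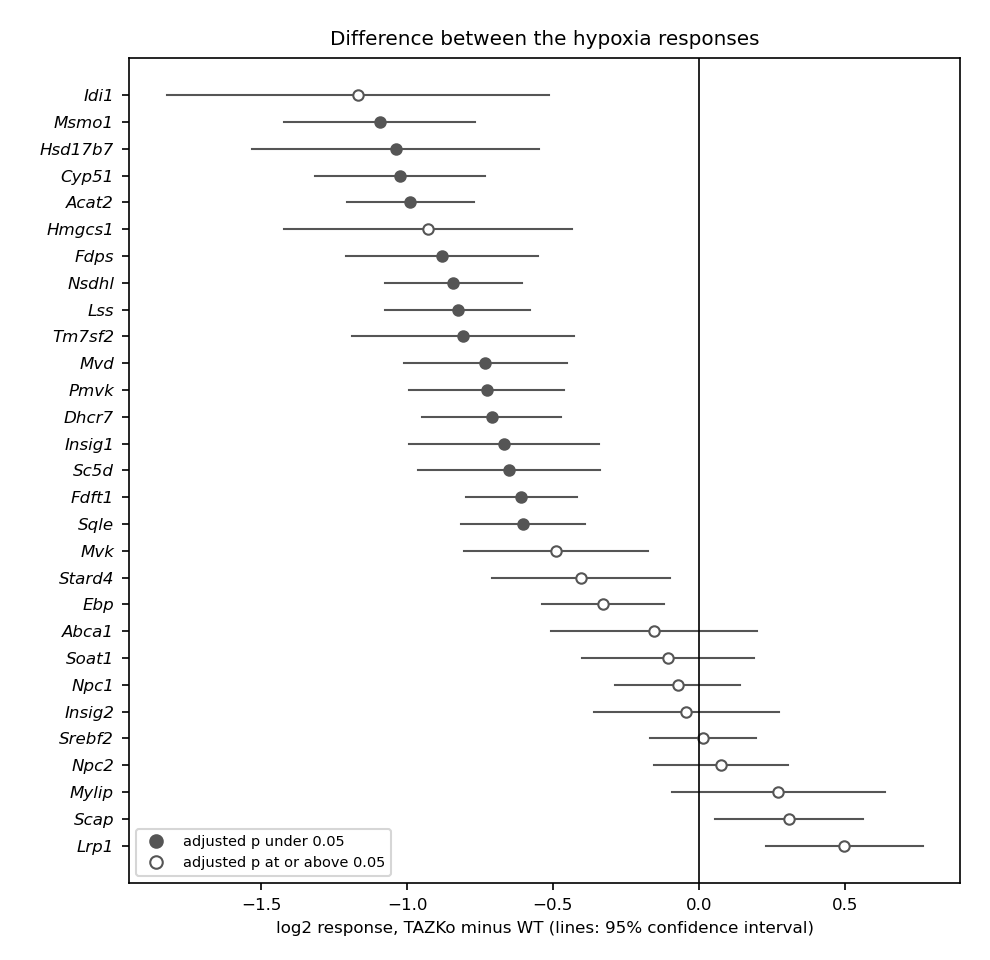
Difference between the hypoxia responses of TAZKo-labelled and WT-labelled cells on the log2 scale (horizontal axis; points are estimates, lines 95% confidence intervals) for the 29 tested genes in order of the estimate; filled points have an edgeR adjusted p under 0.05. The 15 filled points lie between -1.09 and -0.60, and the intervals of Srebf2, Insig2, Npc1, Npc2, Soat1, Abca1 and Mylip include 0.

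Neighbouring pathways were described with lists of other genes. Of 11 genes of acetyl-CoA supply and of fatty acid synthesis under the related factor SREBP-1, 9 rose and 2 did not pass in WT-labelled hypoxia, with a median of 1.75-fold, and 7 rose and 4 did not pass in TAZKo-labelled hypoxia, with a median of 1.29-fold, beside 26% and 22.2% of all genes that rose. In hypoxia 10 of the 11 were lower in TAZKo-labelled cells, beside 16.9% of all genes, and in normoxia 5 were lower and 1, Acss2, was higher, beside 14.9% and 15.6%. The response was smaller in TAZKo-labelled cells for 4, namely Acss2, Elovl6, Acly and Scd1, beside 1.71% of all genes. Acss2, which makes acetyl-CoA from acetate, stood at 11.8, 10.8 and 10.2 CPM in the 3 WT-labelled normoxia samples, 13.6, 12.01 and 13.01 in TAZKo-labelled normoxia, 31.8, 34.01 and 35.3 in WT-labelled hypoxia and 16.7, 17.7 and 16.2 in TAZKo-labelled hypoxia. The TAZKo-labelled samples were slightly above the WT-labelled ones in normoxia and far below them in hypoxia. Its responses differed by -1.24 ± 0.11 (SE; edgeR adjusted p = 0.00016), and those of the fatty acid elongase Elovl6 by -0.80 ± 0.13 (edgeR adjusted p = 0.00531). Srebf1, the gene of SREBP-1, rose 1.22-fold in WT-labelled and 1.45-fold in TAZKo-labelled cells (edgeR adjusted p = 0.0121 and 0.000201).

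Of 12 further genes of SREBP processing and sterol sensing, 2 rose and 3 fell in WT-labelled hypoxia, 3 rose and 3 fell in TAZKo-labelled hypoxia, and 2 were called between the labels in normoxia and 3 in hypoxia. Over all genes, 26% rose and 25% fell in WT-labelled and 22.2% and 21.6% in TAZKo-labelled hypoxia, so the list's hypoxia counts were near or below the shares of all genes. Between the labels 15.6% were higher and 14.9% lower in normoxia, and 15.8% and 16.9% in hypoxia. Syvn1, a ligase of the endoplasmic reticulum, was 1.41-fold lower in TAZKo-labelled cells in normoxia and 1.49-fold lower in hypoxia (edgeR adjusted p = 0.000223 and 5.68e-05). Its log2 differences were -0.49 and -0.58, beside medians of -0.27 and -0.28 over all tested genes of its chromosome, 19. The part of that shift was not tested.

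Of 12 genes of the isoprenoid side branches, which use farnesyl diphosphate for protein prenylation, ubiquinone and dolichol, 2 rose and 4 fell in WT-labelled hypoxia and 1 rose and 4 fell in TAZKo-labelled hypoxia, where of all genes 26% rose and 25% fell in the first and 22.2% and 21.6% in the second. The largest fall was that of Fntb, a farnesyltransferase subunit, at -0.63 and -0.57 (edgeR adjusted p = 4.78e-05 and 0.00017), and the largest rise that of Rabggta, at 0.43 and 0.31 (edgeR adjusted p = 0.00238 and 0.0219). The side branches had medians of -0.06 and -0.08, below the 1.72 and 0.73 of the 7 genes of the mevalonate branch itself. This contrast of lists is a description and was not tested.

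Of 21 further genes of sterol transport and lipoprotein receptors, 9 rose and 4 fell in each hypoxia comparison. Of all genes, 26% rose and 25% fell under the WT label, and 22.2% and 21.6% under the TAZKo label. Between the labels 5 of the 21 were higher and 4 lower in normoxia, and 6 and 5 in hypoxia. Over all genes 15.6% were higher and 14.9% lower in normoxia, and 15.8% and 16.9% in hypoxia. The list's median log2 differences between the labels were 0.07 and -0.04. Vldlr, a lipoprotein receptor, was at 1.09 to 1.55 CPM in WT-labelled and 0.0618 to 0.0867 CPM in TAZKo-labelled normoxia, and at 9.56 to 10.8 CPM and 0.138 to 0.340 CPM in hypoxia. It was lower in TAZKo-labelled cells in both conditions, although its TAZKo-labelled normoxia samples were below the floor of 3 counts (edgeR adjusted p = 1.67e-06 and 9.69e-10). Gramd1b, which moves cholesterol from the plasma membrane to the endoplasmic reticulum, was at 0.359 to 1.15 CPM in WT-labelled and 7.68 to 10.3 CPM in TAZKo-labelled samples (edgeR adjusted p = 2.2e-09 in normoxia and 1.11e-09 in hypoxia). Stard5, a sterol carrier related to Stard4, was 2.22-fold higher in TAZKo-labelled cells in normoxia and 2.09-fold higher in hypoxia, opposite in sign to Stard4 (edgeR adjusted p = 1.51e-07 and 3.5e-07). Of 4 oxysterol enzymes, Ch25h, Cyp27a1 and Cyp7b1 were at or below 0.0877 CPM and were not tested. Cyp46a1 fell in hypoxia under both labels, by log2 -0.83 and -0.63 (edgeR adjusted p = 0.00223 and 0.00932).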

How the data were processed

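The authors deposited 1 table of raw read counts per Ensembl gene for each of the 12 samples, per the values, which are whole numbers with a different total in each sample. Per the labels' protocols, libraries came from an Illumina TruSeq RNA kit, the genome build is mm10 per the submitters' processing notes, and the aligner, the counting program, its strand setting and its treatment of shared reads are not given in the sources used here. Of the 48709 gene IDs, 48349 matched a symbol, and coordinates are those of GENCODE M21 on GRCm38, the assembly that mm10 denotes.

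Genes were filtered with filterByExpr and fitted with edgeR 4.0.16 (R 4.3.3, limma 3.58.1), quasi-likelihood test, TMM scaling, 1 coefficient per group over all 12 samples, with 5 contrasts. P-values were adjusted by Benjamini-Hochberg over the 14408 tested genes in each contrast, and a call is an adjusted p under 0.05. The SE is the log2 difference divided by the square root of F. Levels are TMM-scaled CPM computed from the counts, with mean ± SD over 3 samples, and the biological coefficient of variation was 8.62%. The members and all lists were chosen with earlier results of these data known. Values per sample are given for the 4 largest called rises and falls of each contrast and for Srebf2, Insig1, Abca1 and Mylip, and other lists are shown by at most 2 called rises and 2 falls per contrast, plus Srebf1, with some genes of these lists not reported here. The scripts were tested on simulated counts.

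Alternatives were DESeq2 size factors, library size alone, no filter, the sample number as a block, lane as a covariate, only the samples compared, DESeq2 1.42.0, and leaving out each sample. Leaving out a sample also changed the filter, the scaling and the shared estimate of the spread in comparisons that the sample is not part of. A call that changed there does not rest on that sample's level. The sample numbers come from the titles, and no label says what they mark. Deviations from the group means were correlated between same-numbered samples. Every such correlation was over 0.1 between the labels in normoxia (0.149 to 0.354) and between conditions in WT-labelled cells (0.152 to 0.368). Block values stand beside those comparisons where they change a call. Samples 2 and 3 also correlated across their numbers there, at 0.112 and 0.116 between the labels and 0.147 and 0.180 between the conditions. The numbers therefore do not tell samples 2 and 3 apart as pairs. In the other comparisons not every same-numbered correlation was over 0.1, and block values stand in the closing section.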

Additional observations from a re-analysis of the deposited data

Results flagged for a closer look

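For 15 members the hypoxia response differed between the labels by the edgeR test of the difference itself (adjusted p under 0.05), always with a smaller rise in TAZKo-labelled cells. On the log2 scale, TAZKo minus WT, the difference was -0.67 for Insig1, which retains SCAP. In the mevalonate branch it was -0.99 for Acat2, -0.73 for Pmvk, -0.73 for Mvd and -0.88 for Fdps. From squalene to lanosterol it was -0.61 for Fdft1, -0.60 for Sqle and -0.83 for Lss. Among the later enzymes it was -1.02 for Cyp51, -0.81 for Tm7sf2, -1.09 for Msmo1, -0.84 for Nsdhl, -1.04 for Hsd17b7, -0.65 for Sc5d and -0.71 for Dhcr7. The level of Taz, which was not lower in the TAZKo-labelled libraries, moves with the same labels, and its part in these differences was not tested.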

How the results depend on the processing

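All calls of members kept their sign in every alternative. The same call was kept in every alternative by 11 of 15 called genes for the labels in normoxia, 24 of 25 in hypoxia, 24 of 27 for hypoxia in WT-labelled cells, 20 of 23 in TAZKo-labelled cells and 11 of 15 for the difference between responses. Leaving out 1 sample in turn gave 1 to 2 members higher and 11 to 16 lower in TAZKo-labelled normoxia, 2 to 3 higher and 22 to 23 lower in TAZKo-labelled hypoxia, 23 to 26 higher and 1 to 3 lower in WT-labelled hypoxia against normoxia, 20 to 26 higher and 0 lower in the TAZKo-labelled cells, and 0 to 1 higher and 11 to 18 lower for the difference between responses. The single normoxia rise came without WT-labelled normoxia sample 2 or TAZKo-labelled normoxia sample 3, where Lrp1 was lost. The number lower in WT-labelled hypoxia was 3 with library size alone and 2 without a filter on low counts. A larger response in TAZKo-labelled cells was called for 1, Lrp1, with library size alone, without a filter, with the replicate block and in DESeq2. The cause was not tested. The fits without 1 sample tested 14664 to 14707 genes. Of these, 1440 to 2514 were higher and 1909 to 2675 lower between the labels in normoxia. In hypoxia 1747 to 2921 were higher and 1982 to 3228 lower. For hypoxia against normoxia, 2880 to 3901 were higher and 3630 to 4181 lower in WT-labelled cells. In TAZKo-labelled cells 2499 to 3808 were higher and 2868 to 3870 lower. The difference between responses was higher for 47 to 415 and lower for 123 to 368.

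With the replicate block the member counts higher and lower were 2 and 16 for the labels in normoxia and 3 and 23 in hypoxia. For hypoxia against normoxia they were 26 and 1 in WT-labelled cells and 23 and 0 in TAZKo-labelled cells. For the difference between responses they were 1 and 18. Calls over all genes rose too. For the labels they went from 2242 and 2142 to 2694 and 2518 in normoxia. In hypoxia they went from 2283 and 2440 to 2660 and 2858. For hypoxia against normoxia they went from 3750 and 3605 to 4145 and 3887 in WT-labelled cells. In TAZKo-labelled cells they went from 3198 and 3111 to 3520 and 3490. For the difference between responses they went from 104 and 246 to 272 and 367. The block brought under the threshold the difference between responses of Hmgcs1 (-0.91, edgeR adjusted p = 0.00101), Idi1 (-1.16, 0.0193), Stard4 (-0.41, 0.0476) and Lrp1 (0.50, 0.0189), and the hypoxia difference of Scap between the labels (0.22, 0.0345). Beyond these and the 3 normoxia values given beside Hmgcs1, Hsd17b7 and Dhcr7, it changed no call of a member.

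Sign changes were confined, among the alternatives run, to uncalled values near 0. Between the labels in normoxia, Ebp was 0.00160 with library size alone, Npc2 was -0.00676 without a filter, and Lss was -0.0100 with DESeq2 size factors, -0.0236 without a filter and -0.00884 in DESeq2. Leaving out samples gave -0.0928 to 0.0401 for Ebp, -0.138 to 0.0185 for Insig2, -0.0636 to 0.0365 for Lss, -0.209 to 0.0443 for Mvk, -0.0570 to 0.101 for Npc2, -0.186 to 0.0289 for Scap and -0.0409 to 0.0472 for Sqle, and in hypoxia -0.125 to 0.0183 for Insig2. For the difference between responses, Insig2 was 0.00953 without a filter, and leaving out samples gave -0.234 to 0.0137 for Abca1, -0.0857 to 0.0802 for Insig2, -0.1000 to 0.00646 for Npc1, -0.00229 to 0.172 for Npc2, -0.163 to 0.0127 for Soat1 and -0.0442 to 0.0710 for Srebf2. Mylip in TAZKo-labelled hypoxia against normoxia was -0.0716 with library size alone, -0.00346 without a filter and -0.00811 with lane, and -0.0456 to 0.0516 without 1 sample. Depth limits the low genes most: Idi1, Tm7sf2 and Mylip had the fewest counts of the tested members, and Abcg1 could not be tested. Fitting only the samples compared was not run for the difference between responses, which uses all 12.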
